A study of Mus musculus with 16 samples.

Results

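The endothelial cells that line the sinusoids of the liver are followed here through 6 genes known for their expression there: the receptors Stab2, Clec4g, Lyve1 and Fcgr2b and the secreted proteins Oit3 and Dnase1l3. They were chosen by name, out of 16857 genes shared by the 3 deposited tables, and all 6 were measured in all 16 libraries. Alb, the albumin gene of hepatocytes, and Pecam1, an adhesion molecule of endothelium in general, were followed beside them.

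Sinusoidal endothelial cells form a porous wall between portal blood and hepatocytes and clear waste molecules and immune complexes from the blood by endocytosis. Stab2 is a scavenger receptor that takes up hyaluronan, Clec4g a lectin that binds glycans, and Lyve1 a hyaluronan receptor that lymphatic endothelium and some macrophages also carry. Fcgr2b is the inhibitory receptor for the constant part of IgG, and B cells, macrophages and dendritic cells carry it as well. Dnase1l3 is a secreted DNase that digests chromatin, also made by dendritic cells and some macrophages, and Oit3 is a protein with a zona pellucida domain.

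The study grew 4T1 cells, a mouse mammary carcinoma line, in female wild-type BALB/c mice aged 6 weeks. The mice received either 400000 cells in the right mammary fat pad of the fourth pair, which the labels call SC, or 200000 cells beneath the capsule of the left lobe of the liver, and tumors grew for 15 days. Paclitaxel, a drug that stabilises microtubules, was given by intraperitoneal injection, 10 mg/kg on 5 occasions a week for 2 weeks, and control mice received PBS. Poly(A) RNA of digested tumor tissue was sequenced, in 3 pre_SC, 3 post_SC, 5 pre_Liver and 5 post_Liver libraries, where pre and post refer to the drug. The labels do not say whether the pre libraries were taken before dosing or from the PBS mice, nor that each library is a separate mouse, so the spread behind every p is that among these libraries and may be technical. The site of growth and the number of cells implanted cannot be told apart. Were the pre libraries taken before dosing, the drug and the age of the tumor could not be told apart either. The tissue is a mixture of carcinoma, host organ and other host cells. In such bulk samples fewer cells of a type and less RNA per cell cannot be told apart.

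The depth behind each value is unknown, since the deposited values are FPKM (fragments scaled to transcript length and library total) or TPM (the same, scaled so that each library has one fixed sum). All 16 hepatocyte genes listed were higher in pre_Liver than in pre_SC (limma, adjusted p under 0.05), and all 8 carcinoma epithelium genes were lower. The summed level of those carcinoma genes ranged from 4715 to 5184 TPM in pre_SC and from 580 to 3029 TPM in pre_Liver, and from 4618 to 5361 TPM in post_SC and 1113 to 3777 TPM in post_Liver. The post_Liver libraries 2 and 3 stood apart from the other 8 liver libraries. Across genes they correlated with each other at r = 0.993, with 0.438% of genes differing by more than 2-fold, and their Alb was 476 and 400.2 FPKM against 4315 to 32308 FPKM in the others. Results that rest on this pair are given with and without it.

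The stretch before the transcription start is shown for Stab2 and Clec4g, which had the largest differences between the sites. The RefSeq promoter table (GRCm38.p6) held 3 of the 6 genes, Stab2, Clec4g and Fcgr2b, and no other sequence was printed. Sequences run 5′ to 3′ on the minus strand, from chr10:87008026-87008192 for Stab2 (167 bases) and chr8:3720652-3720901 for Clec4g (250 bases). Capitals mark GATA-type motifs: AGATAA or its variant AGATAG, and the forms TGATAA as well as TGATAG. All 4 were searched on both strands. They were chosen because Gata4 is known as a regulator of sinusoidal endothelium.
Stab2: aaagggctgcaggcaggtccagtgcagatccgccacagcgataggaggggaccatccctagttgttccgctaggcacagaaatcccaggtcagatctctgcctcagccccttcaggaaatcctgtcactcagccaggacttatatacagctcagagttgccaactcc
Clec4g: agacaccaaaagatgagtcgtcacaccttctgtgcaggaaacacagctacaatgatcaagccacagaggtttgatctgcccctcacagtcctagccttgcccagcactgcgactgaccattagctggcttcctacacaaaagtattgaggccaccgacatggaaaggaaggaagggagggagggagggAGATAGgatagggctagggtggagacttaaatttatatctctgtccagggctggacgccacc
The Clec4g stretch held 1 match, AGATAG, 62 bases before the start, and the Stab2 stretch held none of the 4 motifs. Among all 32851 promoters in the table, 26.5% held a match in the 250 bases before the RefSeq start. In the 167 of these bases farthest from that start, the part printed for Stab2, 20.4% held a match. The genes lie on several chromosomes of GRCm38: Stab2 at chr10:86841198-87008025, Oit3 at chr10:59422958-59441778, Clec4g at chr8:3707064-3720651, Lyve1 at chr7:110850607-110863239, Fcgr2b at chr1:170958617-170976547 and Dnase1l3 at chr14:7964533-7994573, all on the minus strand.

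The first comparison asked which of these genes differed between the liver and the fat pad tumors without the drug. Stab2, Clec4g, Oit3, Dnase1l3 and Lyve1 were all higher in the liver tumors, and Fcgr2b was not called different. That is 5 of 6 genes called, all higher, where 48.6% of the 13452 genes tested were called in either direction and 14.7% were called higher. The median log2 difference was 3.17 over the 6 genes and −0.52 over all genes. All 5 had groups that did not overlap, with every pre_Liver library above every pre_SC library, which held for 16.4% of all genes.

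Among the receptors, Stab2 was close to absent from the fat pad tumors. Its pre_SC values were 0.0410, 0.0194 and 0.0399 TPM, which are 2, 1 and 2 of the rounding steps of that table. In the liver tumors the mean was 16.4 ± 5.29 TPM (SD, n = 5), and in the pre_SC libraries 0.0336 ± 0.0122 TPM (SD, n = 3). These TPM, like all TPM means below, were computed over the shared genes. The log2(TPM + 1) difference was 3.99 ± 0.28 (SE, limma adjusted p = 2.33e-05), a scale that understates the change of a gene so low in 1 group.

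Clec4g showed the largest difference of the 6. It read 0.164, 0.0776 and 0.160 TPM in the pre_SC libraries (8, 4 and 8 rounding steps), and averaged 72.6 ± 42.8 TPM (SD, n = 5) in pre_Liver. The log2 difference was 5.73 ± 0.54 (SE, limma adjusted p = 0.00014). The pre_Liver values of Clec4g were 10.0, 22.8, 42.2, 48.1 and 67.0 FPKM from the lowest to the highest library.

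The secreted proteins came next. Oit3 averaged 0.799 ± 0.164 TPM (SD, n = 3) in pre_SC and 22.1 ± 9.59 TPM (SD, n = 5) in pre_Liver, a 27.6-fold ratio of means. On the log2 scale it differed by 3.56 ± 0.34 (SE, limma adjusted p = 0.000151). Dnase1l3 was readily detected in the fat pad tumors, at 8.05, 5.26 and 3.85 TPM in the 3 pre_SC libraries. It averaged 46.5 ± 14.6 TPM (SD, n = 5) in pre_Liver, 8.09-fold the pre_SC mean, and the fitted log2 value differed by 2.78 ± 0.32 (SE, limma adjusted p = 0.000387).

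The 2 receptors shared with other cell types differed least. Lyve1 read 2.38, 4.29 and 3.85 TPM in pre_SC and averaged 14.0 ± 3.58 TPM (SD, n = 5) in pre_Liver, 3.99-fold the pre_SC mean, higher by 1.71 ± 0.26 in log2 units (SE, limma adjusted p = 0.00209). Fcgr2b was abundant at both sites, with a mean of 209 ± 31.8 TPM (SD, n = 3) in pre_SC and 151 ± 36.2 TPM (SD, n = 5) in pre_Liver. Its log2 difference was −0.51 ± 0.22 (SE, limma adjusted p = 0.0825), and its groups overlapped. Pecam1 was also present at both sites, with a mean of 44.4 ± 9.06 TPM (SD, n = 3) in pre_SC and 37.5 ± 3.80 TPM (SD, n = 5) in pre_Liver, and differed by −0.24 ± 0.18 in log2 units (SE, limma adjusted p = 0.271). Alb differed by 13.07 ± 0.71 on the log2 scale.

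The table of untreated libraries carries an added constant for each gene (removed here), which pre_Liver libraries 1 to 3 shared with the 3 pre_SC libraries and libraries 4 and 5 did not. Within the set of 6 that shared it the log2 differences were 3.83 for Stab2, 5.16 for Clec4g, 3.20 for Oit3, 2.62 for Dnase1l3, 1.59 for Lyve1 and −0.53 for Fcgr2b, with the same 5 genes called. Of all genes 34.8% were called in that set and 14.1% were higher. Over all genes 1984 were higher and 4554 lower in the liver tumors, and with scaling by the median of ratios 3158 were higher and 2347 lower, which moved the median of all genes from −0.52 to −0.00. Fcgr2b then read 0.06 (limma adjusted p = 0.876), so its direction depended on the scaling. Without pre_Liver library 1 it was called lower, at −0.62 (limma adjusted p = 0.0463), where 46.2% of all genes were called and 32.4% were lower.

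**Figure D1:**
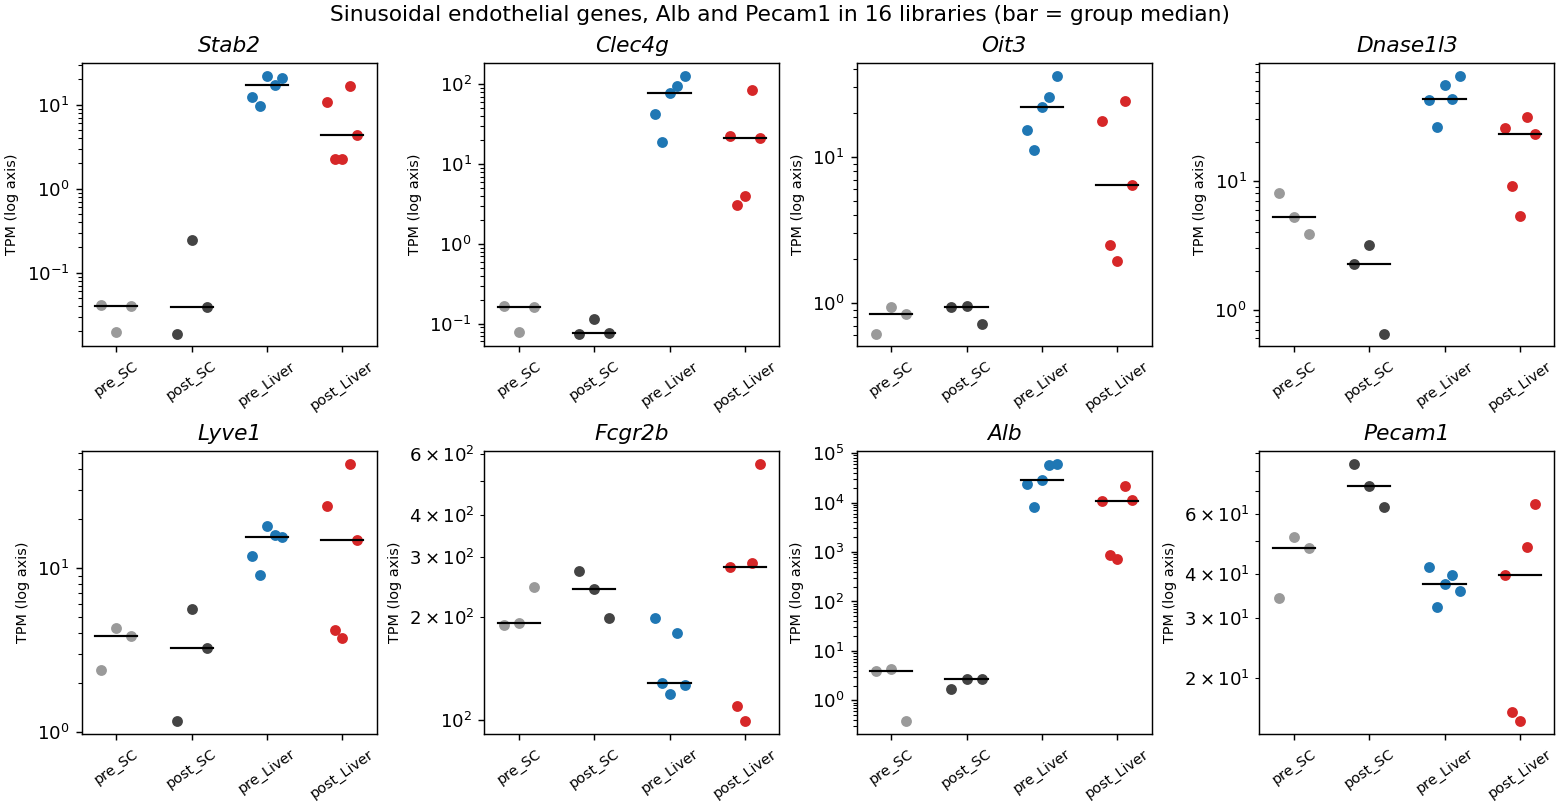
Level of each gene in every library, in TPM over the shared genes on a log axis, for the 4 groups, with a bar at the group median. Stab2, Clec4g and Oit3 in both liver groups lie above every subcutaneous library, while Fcgr2b overlaps between the sites, and post_Liver libraries 2 and 3 are the lowest or next to lowest liver points in every panel.

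A wider list of 18 other genes known in sinusoidal endothelium was read in the same fit. Of 16 tested, 11 were higher and 1 was lower in pre_Liver, with a median log2 difference of 1.53. Gpr182, a receptor that scavenges chemokines, led by p at 4.02 ± 0.46 (SE, limma adjusted p = 0.000406), followed by the Wnt signal enhancer Rspo3 at 2.01 and Flt4, the receptor for lymphangiogenic VEGF, at 2.24. The gene that was lower, named after its value was seen, was the lysosomal protease gene Ctsl, at −0.78 (limma adjusted p = 0.0201). Of 16 pan-endothelial genes, which include Pecam1, 6 were higher and none was lower, led by Kdr at 1.73 (limma adjusted p = 0.00513). Among 6 genes of the Fc gamma receptor list, Fcgrt, the neonatal Fc receptor, was called higher at 1.53 (limma adjusted p = 0.0103), and the other 5, Fcgr2b included, were not called. Among 6 DNase I and II family genes, Dnase1l3 and Dnase2b were higher and 2 were lower, Dnase1l2 among them at −0.91 (limma adjusted p = 0.0206). With scaling by the median of ratios, 12 of 16 other sinusoidal and 9 of 16 pan-endothelial genes were higher and none was lower, Ctsl read −0.21 (limma adjusted p = 0.576) and Dnase1l2 −0.57 (limma adjusted p = 0.0492).

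Cells that share Fcgr2b, Lyve1 or Dnase1l3 also differed between the sites in part. None of 8 macrophage genes was called, with a summed level of 1623 to 1974 TPM in pre_SC and 1257 to 2370 TPM in pre_Liver, and none of them was at 0. Of 7 B cell genes, 5 were higher in pre_Liver, with a summed level of 4.51 to 7.49 TPM in pre_SC and 19.4 to 118 TPM in pre_Liver. Of 7 dendritic cell genes, 2 were higher, with summed levels of 102 to 127 TPM and 54.5 to 175 TPM. Of 7 Kupffer cell genes tested, markers of the resident macrophages of the liver, 5 were higher, with summed levels of 94.8 to 131 TPM and 261 to 484 TPM. With scaling by the median of ratios, 2 macrophage, 7 B cell, 5 dendritic cell and 6 Kupffer cell genes were higher, and of the 8 carcinoma epithelium genes 5 were lower. The part of these cells in the values of the 6 genes was not tested.

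In the liver tumors the 6 genes formed a broad range of levels. In pre_Liver the order of the means was Fcgr2b, Clec4g, Dnase1l3, Oit3, Stab2 and Lyve1, from 151 to 14.0 TPM, with Pecam1 between Dnase1l3 and Oit3. The ranges of all neighbours in that order overlapped, although Oit3 exceeded Stab2 and Stab2 exceeded Lyve1 in all 5 libraries. In post_Liver only Fcgr2b, at 269 ± 188 TPM (SD, n = 5), was separate from the rest, and Lyve1 (18.0 ± 16.4 TPM, SD, n = 5) was above Oit3 (10.6 ± 9.98) and Stab2 (7.26 ± 6.33) in the order of the means.

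The second comparison set the 5 post_Liver beside the 5 pre_Liver libraries. None of the 6 genes was called by limma, against 3.64% of the 13008 genes tested in either direction and 1.41% lower. All 6 had groups that overlapped, and 6.63% of all genes had groups apart. Stab2, Clec4g, Oit3 and Dnase1l3, 4 of the 6, had lower means after the drug and an unadjusted p under 0.05, which 31.7% of all genes also had. The median log2 difference of the 6 was −1.24, and that of all genes was 0.37.

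Stab2 read 6.66, 5.08, 11.8, 8.53 and 10.9 FPKM in pre_Liver libraries 1 to 5 and 5.45, 1.21, 1.23, 8.77 and 2.21 FPKM in post_Liver libraries 1 to 5. The post_Liver libraries 2, 3 and 5 were below every pre_Liver library, and 1 and 4 lay within their range. The log2 difference was −1.22 ± 0.43 (SE, limma adjusted p = 0.106). Clec4g read 11.5, 1.69, 2.19, 45.1 and 10.9 FPKM in post_Liver, so that library 4 stood at the upper pre_Liver values and libraries 2 and 3 below all of them, with a difference of −1.86 ± 0.78 (SE, limma adjusted p = 0.138).

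Oit3 went from 8.35, 5.85, 11.8, 13.0 and 18.9 FPKM in pre_Liver to 9.04, 1.36, 1.06, 12.8 and 3.30 FPKM in post_Liver, a difference of −1.26 ± 0.54 (SE, limma adjusted p = 0.145). Dnase1l3 read 23.0, 13.8, 29.5, 21.9 and 34.3 FPKM in pre_Liver and 13.0, 4.97, 2.91, 16.3 and 11.8 FPKM in post_Liver, where only library 4 exceeded the lowest pre_Liver value, with a difference of −1.38 ± 0.42 (SE, limma adjusted p = 0.0799).

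Lyve1 and Fcgr2b did not share this pattern. Lyve1 read 6.41, 4.73, 9.71, 7.97 and 8.09 FPKM in pre_Liver and 12.1, 2.27, 2.04, 22.7 and 7.54 FPKM in post_Liver, above all pre_Liver values in libraries 1 and 4 and below all in libraries 2 and 3. Its difference was −0.10 ± 0.53 (SE, limma adjusted p = 0.887). Fcgr2b read 108, 67.0, 64.1, 90.5 and 66.6 FPKM in pre_Liver and 143, 59.7, 53.9, 152 and 287 FPKM in post_Liver, with libraries 1, 4 and 5 above all pre_Liver values, and a difference of 0.57 ± 0.43 (SE, limma adjusted p = 0.326). Alb differed by −2.69 ± 1.03 (SE, limma adjusted p = 0.121) and Pecam1 by −0.24 ± 0.36 (SE, limma adjusted p = 0.607).

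The pair that stands apart carried much of these differences. Without post_Liver libraries 2 and 3 the log2 differences were −0.66 for Stab2, −0.78 for Clec4g, −0.49 for Oit3 and −0.74 for Dnase1l3, with limma adjusted p from 0.210 to 0.562, and 0.75 for Lyve1 (adjusted p = 0.273) and 1.24 for Fcgr2b (adjusted p = 0.0833). Single other libraries also decided calls. Without post_Liver library 4, Stab2, Clec4g and Dnase1l3 were called lower at −1.54, −2.45 and −1.60 (limma adjusted p = 0.0333, 0.0412 and 0.0387), where 13.8% of all genes were called and 6.59% were lower. Without pre_Liver library 2, Stab2 and Dnase1l3 were called lower at −1.37 and −1.56 (limma adjusted p = 0.0499 and 0.0328), where 27.2% of all genes were called and 7.86% were lower. With all liver libraries, none of 16 other sinusoidal genes and none of 16 pan-endothelial genes tested was called, with medians of −0.39 and −0.27. Gpr182 read −1.50 (limma adjusted p = 0.138) and Kdr −1.26 (limma adjusted p = 0.104). Without post_Liver libraries 2 and 3 the medians of these lists were 0.05 and 0.21, and that of all genes was 0.23. In that fit 1 other sinusoidal gene was called higher and no pan-endothelial gene was called. Of all genes 0.911% were called higher there.

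**Figure D2:**
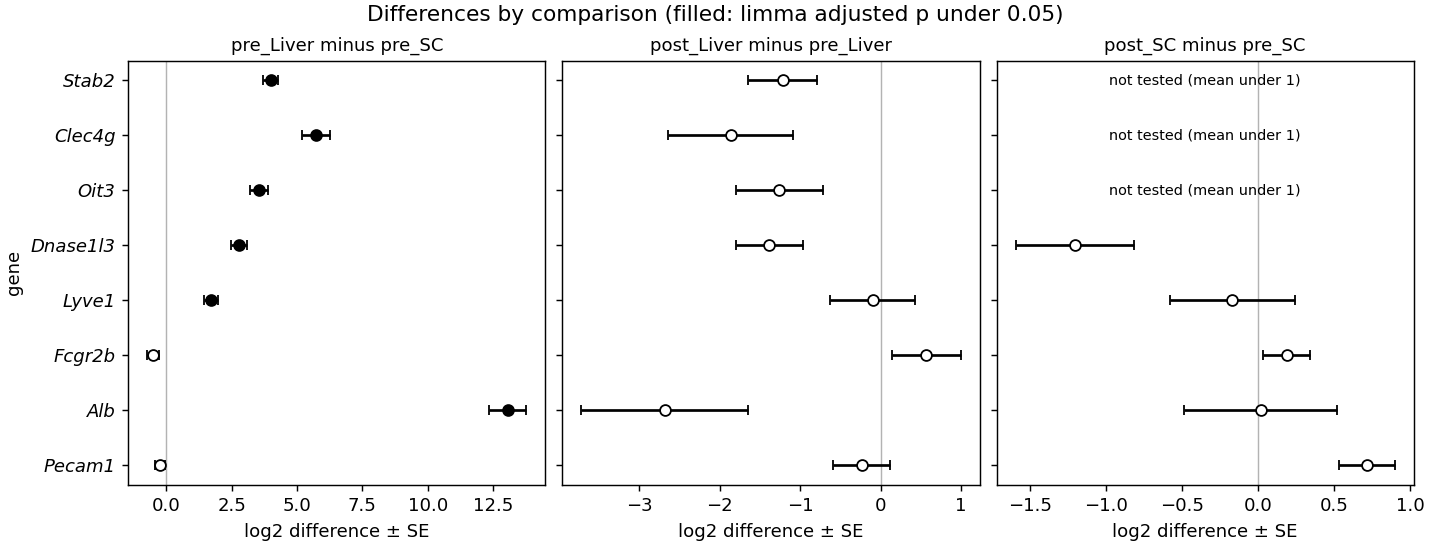
Log2 difference ± SE of each gene (x axis) in pre_Liver minus pre_SC, post_Liver minus pre_Liver and post_SC minus pre_SC, from limma, with filled points at an adjusted p under 0.05 and a separate x scale in each panel. Among the 6 sinusoidal genes the filled points are Stab2, Clec4g, Oit3, Dnase1l3 and Lyve1 in the comparison of sites, and no point is filled in either drug comparison.

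In the fat pad tumors Stab2, Clec4g and Oit3 had a mean under 1 TPM and were not tested. Stab2 read 0.0188, 0.246 and 0.0383 TPM in post_SC, or 1, 13 and 2 rounding steps. Of the 3 genes tested none was called by limma, against 6.94% of 13364 genes. An unadjusted p under 0.05 was seen for 1 of the 3, and for 27.4% of all genes. The 1 gene was Dnase1l3, at 2.27, 3.14 and 0.651 TPM in post_SC, below all 3 pre_SC values. Its difference was −1.21 ± 0.39 (SE, limma adjusted p = 0.101), and 18.7% of all genes had groups apart in that direction. Lyve1, at 1.16, 5.62 and 3.24 TPM in post_SC, differed by −0.17 ± 0.41 (SE, limma adjusted p = 0.816). Fcgr2b, at 188, 191 and 244 TPM in pre_SC and 273, 240 and 198 TPM in post_SC, differed by 0.19 ± 0.16 (SE, limma adjusted p = 0.470).

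Pecam1 read 34.0, 51.0 and 47.6 TPM in pre_SC and 83.4, 71.8 and 62.5 TPM in post_SC, with a difference of 0.71 ± 0.19 (SE, limma adjusted p = 0.062). Of 16 pan-endothelial genes 7 rose and 1 fell in the fat pad tumors, led by Emcn, a sialomucin of venous and capillary endothelium, at 1.50 (limma adjusted p = 0.00653), and Cldn5, a tight junction protein, at 1.97 (limma adjusted p = 0.0156). Of 13 other sinusoidal genes tested none rose and 1 fell, the transcription factor gene Gata4, at −1.15 (limma adjusted p = 0.0358).

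The difference between the drug responses of the sites was not called for any of the 6 genes, where 3.03% of 13698 genes were called. An unadjusted p under 0.05 was seen for 1 of the 6, and for 25.2% of all genes. The interaction term, liver response minus fat pad response, was −1.44 ± 0.67 (SE, limma adjusted p = 0.198) for Stab2, the gene with that unadjusted p. It was −1.90 for Clec4g (limma adjusted p = 0.288), −1.45 for Oit3 (limma adjusted p = 0.275) and −0.23 for Dnase1l3 (limma adjusted p = 0.840). For Lyve1 and Fcgr2b it was 0.04 and 0.38 (limma adjusted p = 0.981 and 0.695). Over 22 alternatives none of the 6 was called, where 0.666% to 19.0% of all genes were. The term ran from −1.97 to −0.77 for Stab2, −2.52 to −0.71 for Clec4g and −1.85 to −0.55 for Oit3. It changed sign in some of them for Dnase1l3, Lyve1 and Fcgr2b. Without post_Liver libraries 2 and 3 that of Dnase1l3 was 0.48 (limma adjusted p = 0.583). With the fat pad values of Stab2 and Clec4g so near the rounding limit, a fall there could not have been seen. A change of Oit3 there, at a mean under 1 TPM, was understated by the added 1. Since the post tables were made separately, levels of post_Liver and post_SC are given with no test: Stab2 averaged 7.26 and 0.102 TPM, Clec4g 27.5 and 0.0889 TPM, Oit3 10.6 and 0.869 TPM, Dnase1l3 18.9 and 2.03 TPM, Lyve1 18.0 and 3.36 TPM and Fcgr2b 269 and 239 TPM.

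The next question was whether the 6 genes follow hepatocyte RNA among the 10 liver libraries. In a fit with a term for the group, all 6 rose with Alb, where 56.9% of 13007 genes were called, 14.6% rising and 42.3% falling with it. With scaling by the median of ratios 27.7% rose and 24.6% fell, and with liver genes left out of the total 23.7% rose and 27.9% fell. Clec4g had the steepest slope, 0.74 ± 0.08 log2 units per log2 unit of Alb (SE, limma adjusted p = 0.000141). Oit3 had 0.49 ± 0.07, Lyve1 0.48 ± 0.07, Dnase1l3 0.38 ± 0.05, Stab2 0.36 ± 0.07 and Fcgr2b 0.32 ± 0.09, with limma adjusted p of 0.000673, 0.000651, 0.000396, 0.00352 and 0.0152. Pecam1 rose with Alb too, at 0.29 ± 0.06 (SE, limma adjusted p = 0.004).

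Without post_Liver libraries 2 and 3, 66.6% of all genes were called and 12.1% rose, and 3 of the 6 were called, all rising: Clec4g at 0.98 (limma adjusted p = 0.00113), Oit3 at 0.54 (limma adjusted p = 0.016) and Dnase1l3 at 0.34 (limma adjusted p = 0.0131). Stab2 had 0.38 (limma adjusted p = 0.0645) and Lyve1 0.33 (limma adjusted p = 0.0637), and Fcgr2b had −0.01 (limma adjusted p = 0.967). Since the pair forms a cluster of its own, correlations are given over the other 8 libraries only, with no term for the group, and with exact two-sided permutation p adjusted over 12 relations. Clec4g correlated with Alb at Pearson r = 0.94 (permutation p = 0.000744, adjusted 0.00893) and Spearman rho = 0.90 (permutation p = 0.00456, adjusted 0.0435). Dnase1l3 had r = 0.86 (exact permutation p = 0.00858, adjusted 0.0343) and rho = 0.83 (p = 0.0154, adjusted 0.0615). Oit3 had r = 0.81 (exact permutation p = 0.0123, adjusted 0.0369) and rho = 0.79 (p = 0.0279, adjusted 0.0838). Stab2 had r = 0.75 (exact permutation p = 0.0282, adjusted 0.0676) and rho = 0.76 (p = 0.0368, adjusted 0.0882). Lyve1 had r = 0.11 and rho = 0.19, and Fcgr2b r = −0.45 and rho = −0.48, with exact permutation p of 0.813, 0.665, 0.268 and 0.243 (adjusted 0.813, 0.725, 0.403 and 0.417).

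With the values of these 8 libraries centred on their group mean, Lyve1 correlated with Alb at r = 0.66 and rho = 0.69 (exact permutation p = 0.0701 and 0.0694, adjusted 0.148 and 0.199). Clec4g then had r = 0.93 (exact permutation adjusted p = 0.00952) and rho = 0.90 (adjusted 0.0548), and Dnase1l3 r = 0.83 (adjusted 0.0499). Oit3 had r = 0.78 (exact permutation adjusted p = 0.0613), Stab2 r = 0.65 (adjusted 0.148) and Fcgr2b r = −0.02 (adjusted 0.966). The sets of 3 and 2 pre_Liver libraries that share an added constant were too small for a correlation of their own. The set of 2, pre_Liver 4 and 5, correlated across genes at r = 0.987, with 1.18% of genes differing by more than 2-fold. Their Alb, 28687 and 32308 FPKM, was above that of every other liver library, so the set and a high Alb cannot be told apart. The permutation p count these 2 libraries as separate points.

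**Figure D3:**
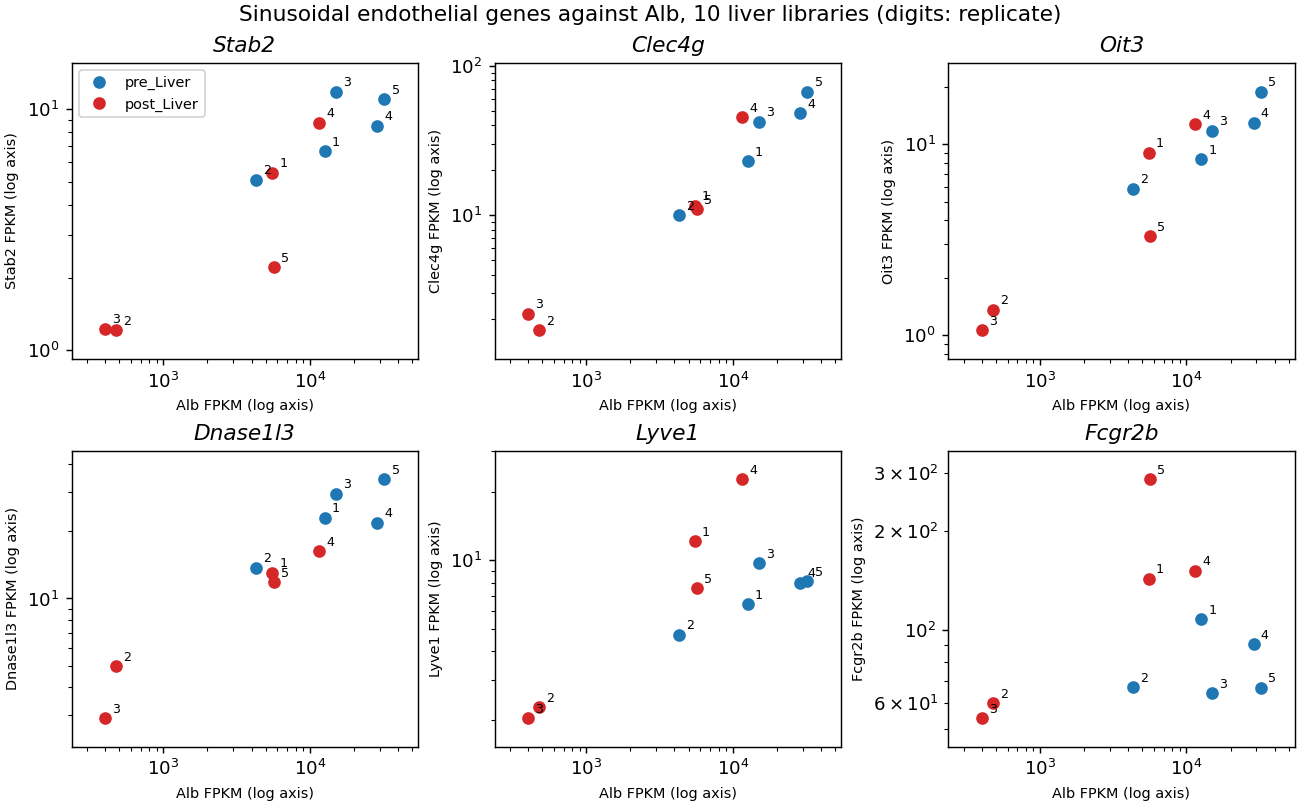
Each of the 6 genes (y axis) against Alb (x axis) in the 10 liver libraries, in FPKM on log axes, with pre_Liver in blue, post_Liver in red and the digit giving the replicate. Clec4g climbs with Alb from 10.0 to 67.0 FPKM among the 8 libraries apart from post_Liver 2 and 3, while Fcgr2b shows no such climb there.

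Among the other lists, 16 of 16 sinusoidal genes rose with Alb, led by the endocytic adaptor gene Ehd3 at 0.60 (limma adjusted p = 8.00e-05), as did 11 of 16 pan-endothelial genes, 8 of 9 Kupffer cell genes and 5 of 8 stellate cell genes. Of 8 carcinoma epithelium genes 6 fell with Alb. Without post_Liver libraries 2 and 3, 8 of 16 sinusoidal, 3 of 9 Kupffer cell and 2 of 8 stellate cell genes rose, 3 pan-endothelial genes rose and 3 fell, and 8 carcinoma genes fell. Of all genes 12.1% rose and 54.5% fell in that fit. The part of tissue composition in the slopes was not tested.

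Pecam1 asks whether the 6 genes follow endothelium in general. In the fit with a term for the group, 3 of 6 rose with Pecam1, where 8.75% of genes were called and 6.78% rose. Fcgr2b had a slope of 1.17 ± 0.15 log2 units per log2 unit of Pecam1 (SE, limma adjusted p = 0.00663), Dnase1l3 of 0.99 ± 0.23 (limma adjusted p = 0.0336) and Lyve1 of 1.23 ± 0.31 (limma adjusted p = 0.0403). Clec4g, Oit3 and Stab2 had 1.66 ± 0.51, 1.04 ± 0.39 and 0.74 ± 0.33, with limma adjusted p of 0.0713, 0.117 and 0.156.

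These calls rested on few libraries. No member was called without post_Liver library 2 or without library 3, where 0 and 10 of all genes were called, nor without both, where no gene was called by limma and the slopes were 1.58 for Fcgr2b, 0.46 for Clec4g, 0.23 for Dnase1l3, −0.46 for Lyve1, −0.93 for Stab2 and −1.17 for Oit3. All 6 were called without post_Liver library 5, where 7.01% of all genes were called and 5.07% rose, with slopes from 1.04 for Fcgr2b to 2.37 for Clec4g. In that library Pecam1 and Fcgr2b were at their highest of the 10, at 32.6 and 287 FPKM, while Stab2, Oit3 and Clec4g were at 2.21, 3.30 and 10.9 FPKM. All 6 were also called with scaling by the median of ratios, where 42.4% of all genes were called and 23.2% rose, and with liver genes left out of the total, where 34.9% were called and 19.3% rose. Without pre_Liver library 3, post_Liver library 1 or post_Liver library 4, 1 was called, where 5.96%, 5.27% and 3.42% of all genes were.

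Over the 8 libraries, Fcgr2b correlated with Pecam1 at r = 0.90 (exact permutation p = 0.00355, adjusted 0.0213) and rho = 0.88 (p = 0.00724, adjusted 0.0435). Centred on the group mean these were r = 0.86 (exact permutation adjusted p = 0.0162) and rho = 0.79 (adjusted 0.168). The r of the other 5 was 0.31 for Lyve1, −0.19 for Clec4g, −0.40 for Dnase1l3, −0.51 for Oit3 and −0.58 for Stab2, with rho of 0.24, −0.12, −0.48, −0.31 and −0.31. Their exact permutation p for r were 0.432, 0.687, 0.332, 0.195 and 0.139 (adjusted 0.519, 0.749, 0.443, 0.335 and 0.279), and for rho 0.582, 0.793, 0.243, 0.462 and 0.462 (adjusted 0.699, 0.793, 0.417, 0.616 and 0.616).

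Of the other lists, in the fit over all 10 libraries, 7 of 8 macrophage genes rose with Pecam1, led by the receptor gene Csf1r at 1.34 (limma adjusted p = 0.00242), beside 8 of 15 pan-endothelial genes, 6 of 16 other sinusoidal genes and 11 of 16 hepatocyte genes. Without post_Liver libraries 2 and 3 none of these was called, as no gene of 12849 was. The summed level of the macrophage genes ranged from 1261 to 7366 TPM in post_Liver, and the part of macrophages in the slope of Fcgr2b was not tested.

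**Figure D4:**
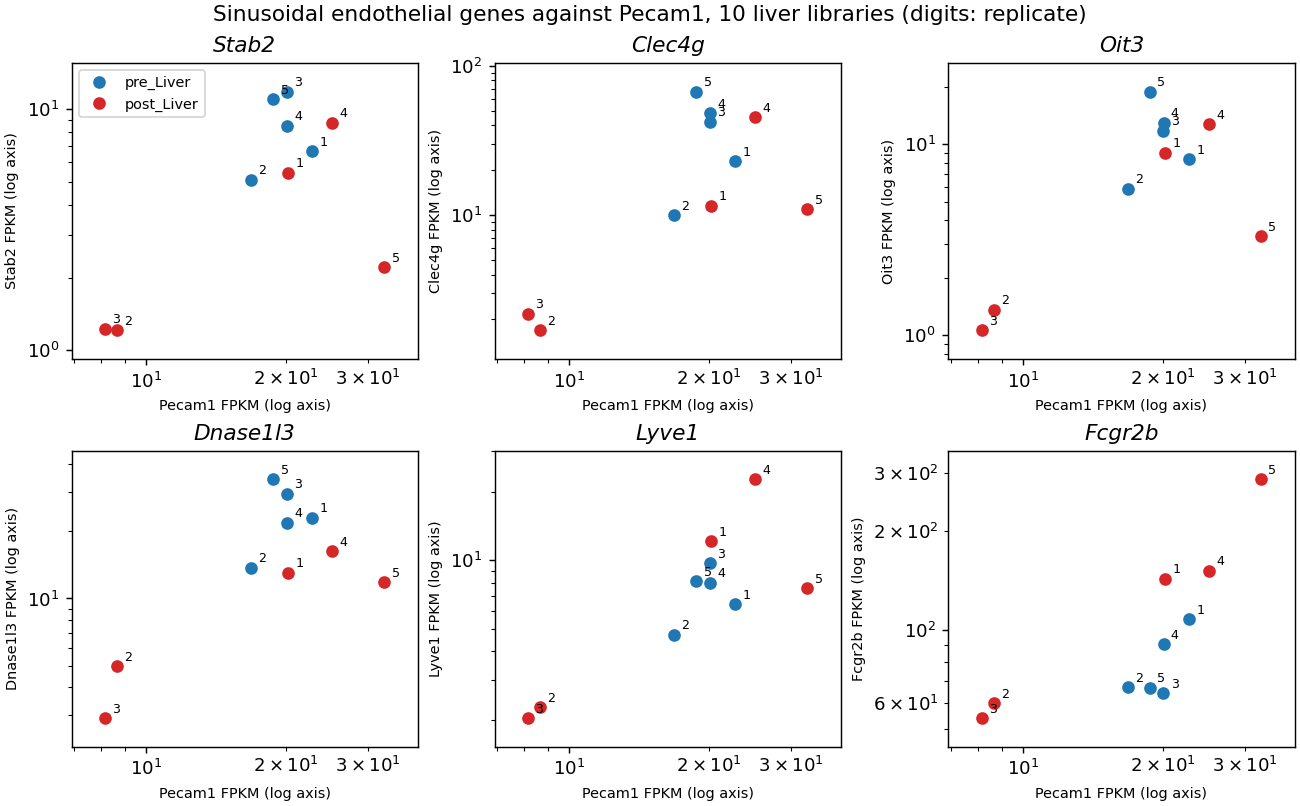
Each of the 6 genes (y axis) against Pecam1 (x axis) in the 10 liver libraries, in FPKM on log axes, with the digit giving the replicate. Post_Liver library 5, at 32.6 FPKM of Pecam1, is the highest point for Fcgr2b and lies below all 5 pre_Liver points for Stab2 and Oit3.

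Set against each other over the same 8 libraries, with no term for the group, the 6 genes fell apart in their pattern. Stab2, Clec4g, Oit3 and Dnase1l3 had r of 0.77 to 0.93 for each pair, highest for Stab2 and Oit3. Lyve1 had r of −0.07 to 0.39 with the other 5. Fcgr2b had r of −0.75 to −0.45 with the first 4. These are descriptions over 8 libraries that share their tissue composition and the total they are scaled to, and carry no test. Differences between pre_Liver and post_Liver enter these r as well, and r centred on the group mean was not computed for the pairs.

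The last comparison took ratios of genes within a library. Ratios to Pecam1 and to Alb were computed for Stab2, Clec4g, Lyve1, Fcgr2b, Oit3 and Dnase1l3 only. The share of all genes with such a ratio called or with groups apart was not computed. Whether the calls of ratios given here and below are unusual among all genes is therefore unknown. The log2 ratio of Fcgr2b to Pecam1, each with 1 FPKM added, was 1.63 to 2.19 in pre_Liver and 2.55 to 3.10 in post_Liver. Every post_Liver library was above every pre_Liver library, with a difference of 0.80 (exact two-sided permutation p = 0.00794, the smallest that 5 against 5 can give, adjusted 0.0317 over 12 ratios). Dnase1l3 went the other way, from −0.27 to 0.83 in pre_Liver and from −1.39 to −0.60 in post_Liver, with a difference of −1.15 (exact permutation p = 0.00794, adjusted 0.0317). The ratios of Stab2, Clec4g and Oit3 to Pecam1 had differences of −0.98, −1.63 and −1.02 (exact permutation p = 0.0317, 0.0397 and 0.0635, adjusted 0.0762, 0.0794 and 0.0952), and that of Lyve1 0.14 (exact permutation p = 0.698, adjusted 0.698).

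Without post_Liver libraries 2 and 3 the differences were of similar size, 0.87 for Fcgr2b and −1.11 for Dnase1l3. Each had an exact permutation p of 0.0357, the smallest that 3 against 5 can give, and an adjusted p of 0.143. Both calls were lost in 9 of 13 alternatives: that one, and 8 of the 10 that left out 1 library, each with an exact permutation adjusted p of 0.0635. In those 8 the groups of both ratios stayed apart, so their p was already the smallest that 4 against 5 can give. The adjusted p then depended on how many of the other ratios reached that p. Both calls held without pre_Liver library 2 or post_Liver library 4. Over all 13 the difference was 0.71 to 0.87 for Fcgr2b and below 0 for Dnase1l3, down to −1.27. Relative to Alb, Lyve1 and Fcgr2b were higher after the drug, by 2.59 and 3.25 (exact permutation p = 0.00794 and 0.0159, adjusted 0.0317 and 0.0476). Mean Alb was 18589 FPKM in pre_Liver and 4711 FPKM in post_Liver. Lyve1 and Fcgr2b themselves differed by −0.10 and 0.57, neither called by limma, so these ratios largely carry the lower Alb. Stab2, Clec4g, Oit3 and Dnase1l3 differed by 1.47, 0.82, 1.43 and 1.30 relative to Alb, with exact permutation p of 0.119, 0.0873, 0.0556 and 0.127 (adjusted 0.139, 0.116, 0.0952 and 0.139). Without the pair, Lyve1 and Fcgr2b differed by 1.83 and 2.32 relative to Alb (exact permutation adjusted p = 0.143 and 0.214). These calls too were lost in 9 of 13 alternatives, among them every library left out but pre_Liver 2 and post_Liver 4. For Lyve1 the groups stayed apart there as well, so its p could not be smaller.

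**Figure D5:**
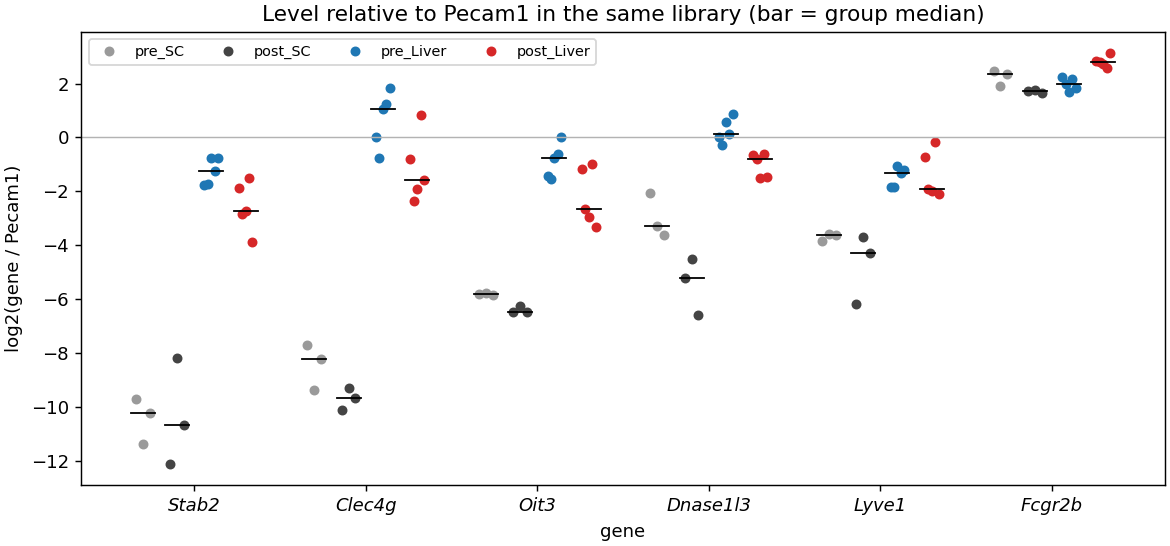
Log2 ratio of each gene to Pecam1 in the same library, with no pseudocount (y axis), for the 4 groups, with a bar at the group median. The post_Liver points of Fcgr2b all lie above the pre_Liver points and those of Dnase1l3 all lie below, while Stab2 and Clec4g in the subcutaneous groups lie far below the liver groups.

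Per transcript of Pecam1, the fat pad tumors also held little of most of these genes. The ratio of Stab2 to Pecam1 had a median of 0.000839 in pre_SC and 0.425 in pre_Liver, that of Clec4g 0.00335 and 2.10, that of Oit3 0.0181 and 0.587, that of Dnase1l3 0.103 and 1.09, and that of Lyve1 0.0809 and 0.397. The ratio of Fcgr2b to Pecam1 had a median of 5.14 in pre_SC and 3.99 in pre_Liver.

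Of 13002 genes, those whose level across the 10 liver libraries was most like the mean of the 6, after centring on the group mean, were Mat1a, Hrg, Pcx, Serpina1e and Serpina1a, with r of 0.993, 0.992, 0.991, 0.991 and 0.991. Serpina1e and Serpina1a belong to a family of near-identical copies, so their separate values are uncertain. Alb ranked 95 with r = 0.974, and Pecam1 ranked 1059 with r = 0.837. The likeness is a description over libraries that include the pair with low Alb.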

How the data were processed

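RNA sequencing of 16 libraries was used. Per the submitters' processing notes, fastp, StringTie and GRCm38/mm10 were involved, with no roles or versions. No table names its unit, so each was read from its values. The liver table was deposited by the authors as FPKM with 2 decimals (column sums of 511645 to 547765), and the subcutaneous table as TPM, each column summing to 1000000. The untreated table, as deposited by the authors, holds a score, namely TPM shifted by 1 constant per gene within a set of libraries, with 2382 genes having a value below 0. That constant was removed by matching it to the other tables (residual at most 7.75e-06), in place of the usable values the design had assumed. Depth is not known from any table, so no interval or floor for counting error is given.

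Genes with a mean of at least 1 were fitted as log2(value + 1) with limma 3.58.1 in R 4.3.3 (lmFit, eBayes with trend), and called where the p, adjusted over all genes by Benjamini and Hochberg, was under 0.05. The fold changes of low genes are understated by the added 1. TPM over 16857 shared genes set tables side by side. Permutation tests were two-sided, exact for 9 or fewer libraries and for the ratios, and otherwise used 100000 resamples (SciPy 1.17.1). Names turned into dates (24 in each of the subcutaneous and untreated tables) were left out, as were 2 rows of the liver table with a repeated name, and 63 names had a hyphen restored. Each fit was tested on simulated data with 200 changed genes. Coordinates are from the GENCODE annotation of GRCm38, counted from 1. The 6 genes and the gene lists were chosen with earlier results of these data known. Named genes are the 6, Alb and Pecam1, up to 3 genes per list in order of p, and the 5 most like the mean of the 6. Alternatives were other pseudocounts, filters and scalings, a replicate block, and each library left out in turn. Leaving out or averaging post_Liver libraries 2 and 3 was chosen after seeing the data.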

Additional observations from a re-analysis of the deposited data

Results flagged for a closer look

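In the post_Liver group Clec4g read 45.08 FPKM in library 4, against a group median of 10.92 FPKM. The gap to the next library was 0.773 of the group's range, above the critical value for 5 values. Among 16 combinations of a gene and a liver group examined this was the only one, and chance flags about 1 in 20.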

How the results depend on the processing

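Over the alternatives for single genes, 743 values kept their direction and side of the threshold, 25 crossed to a call, 76 lost a call and 35 changed direction. The number of the 6 genes called stayed within 1.5 times the main count in 84 alternatives and moved in 14. In the liver response it ranged from 0 to 3 with 1 library left out, where 0.898% to 27.2% of all genes were called. With the replicate block it was 2 (Clec4g, limma adjusted p = 0.0362, and Dnase1l3, 0.0338), where 26.6% of all genes were called and 7.85% were lower. Deviations of same-numbered libraries correlated at −0.12 to 0.75 in the liver and −0.16 to 0.13 in the fat pad, and not every library correlated best with its own number, so the numbers were not taken as pairs. On Alb the count was 3 without post_Liver libraries 2 and 3, against 6, where 66.6% of all genes were called. On Pecam1, against 3, it was 6 with scaling by the median of ratios or with liver genes left out of the total, 0 with no group term (2.25% of all genes called), 0 without post_Liver libraries 2 and 3 (none called), and 0 to 6 with 1 library left out.

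Values that changed direction were as follows, and the cause was not tested except that fewer libraries entered where some were left out. With scaling by the median of ratios, Fcgr2b between the sites became 0.057, and the response differences of Lyve1 and Fcgr2b −0.39 and −0.087. With liver genes left out of the total that of Lyve1 was −0.28, and with a pseudocount of 0.1 that of Dnase1l3 was 0.12. Averaging post_Liver libraries 2 and 3 gave Lyve1 0.22 in the liver response. Without them it was 0.75, the response difference of Dnase1l3 was 0.48, the slope of Fcgr2b on Alb −0.0079, and the slopes on Pecam1 −0.93 for Stab2, −0.46 for Lyve1 and −1.17 for Oit3. Pearson r over the 8 libraries without them was −0.45 for Fcgr2b with Alb, and with Pecam1 −0.58 for Stab2, −0.19 for Clec4g, −0.51 for Oit3 and −0.40 for Dnase1l3. With these also centred on the group mean it was −0.019 for Fcgr2b with Alb, and with Pecam1 −0.36 for Stab2, −0.20 for Lyve1 and −0.38 for Oit3. Over all 10 libraries, with permutation tests, r was 0.28 for Fcgr2b with Alb, and with Pecam1 0.58 for Stab2, 0.70 for Clec4g, 0.80 for Lyve1, 0.65 for Oit3 and 0.71 for Dnase1l3. With 1 library left out, Lyve1 ranged from −0.51 to 0.23 in the liver response, from −0.55 to 0.26 in the fat pad response, from −0.39 to 0.41 in the response difference and from −0.13 to 0.33 in its ratio to Pecam1, and Dnase1l3 from −0.62 to 0.12 in the response difference.

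Unknown depth limits Stab2 and Clec4g most, since their fat pad values are a few rounding steps. With the pair left out, 3 against 5 libraries cannot give an exact permutation p under 0.0357, so adjusted ratios could not pass.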
